A study of Mus musculus with 6 samples.

Results

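The 10 genes described here belong to the MHC class I antigen processing pathway. Most make or load peptides, while B2m is the light chain and Nlrc5 activates class I genes. They were chosen by name, as every array probe set whose only annotated gene symbol was Tap1, Tap2, Tapbp, B2m, Psmb8, Psmb9, Psmb10, Nlrc5, Erap1 or Psme1. This gave 17 of the 45037 probe sets that were not controls, or 10 of 18193 genes with a symbol of their own, and all 17 were above background on at least 1 array. RNA came from 3 pRb-deficient cultures, labelled Rb Knockout, and from 3 pRb-expressing cultures, labelled Wild type, each hybridized to 1 Affymetrix array. Both kinds of cell were osteoblasts of the skull vault of embryonic day 18.5 mice, and all were immortalized by the 3T3 protocol (MC3T3 cells). The pRb-deficient cells came from a cross of floxed RB1 animals, kept on a C57BL/6 background, with Col1a1-Cre transgenics, in which Cre is driven by a collagen promoter of the osteoblast lineage, and the pRb-expressing cells came from control littermates. The sample titles name no treatment for either group, and the study states that both lines were harvested while they were proliferating. The labels call the cultures biological replicates without saying whether they were separate lines. P-values therefore rest on the spread between these cultures alone, and this spread may be technical. The line of cells a culture came from and its pRb status cannot be told apart.
MHC class I molecules show peptides of a cell's own proteins to cytotoxic T cells. The peptides are cut by the proteasome, carried into the endoplasmic reticulum by the TAP transporter, trimmed there by aminopeptidases and fitted into a heavy chain that is paired with a light chain. In cells exposed to interferon gamma the immunoproteasome subunits replace the standard catalytic subunits of the proteasome. Many cells that are not of the immune system express this set of genes at a lower level without such exposure.

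Promoter sequences of 3 of these genes are shown because Tap1 and Psmb9 share one, because Psmb8 lies beside them, and because B2m, with the smallest change of those with a promoter sequence given here, stands in contrast. They are the 250 bases before the start of each gene, 5′ to 3′ on the strand of the named gene, from RefSeq for build GRCm38.p6. Capitals mark matches, on either strand, to the 6 motifs searched, of which 4 had matches: the interferon-stimulated response element core (GAAANNGAA), the gamma-activated site of STAT factors (TTCNNNGAA), an E2F motif (TTTGGCGC) and the Y box (CCAAT).
Tap1, chr17:34187306-34187555, plus strand: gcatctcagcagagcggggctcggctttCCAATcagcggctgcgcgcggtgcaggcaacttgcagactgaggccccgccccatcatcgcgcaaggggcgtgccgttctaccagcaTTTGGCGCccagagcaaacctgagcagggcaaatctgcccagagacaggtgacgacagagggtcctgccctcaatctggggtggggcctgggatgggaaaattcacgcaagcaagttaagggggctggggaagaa
Psmb8, chr17:34197945-34198194, plus strand: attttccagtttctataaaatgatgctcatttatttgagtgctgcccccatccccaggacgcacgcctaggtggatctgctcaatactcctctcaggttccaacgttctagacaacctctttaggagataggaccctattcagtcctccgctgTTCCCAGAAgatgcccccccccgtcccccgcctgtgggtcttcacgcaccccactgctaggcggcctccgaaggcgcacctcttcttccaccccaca
B2m, chr2:122147437-122147686, plus strand: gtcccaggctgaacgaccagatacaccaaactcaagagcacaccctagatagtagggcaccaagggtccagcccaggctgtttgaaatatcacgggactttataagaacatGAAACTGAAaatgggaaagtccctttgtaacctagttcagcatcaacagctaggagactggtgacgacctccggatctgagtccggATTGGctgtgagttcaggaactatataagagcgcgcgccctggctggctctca
Psmb9 is read from the opposite strand of the Tap1 sequence, with its start 226 bases away from that of Tap1. Windows from 250 bases before to 50 bases after the start were given for 8 of the 10 genes, and those of Tap1 and Psmb9 had 275 bases in common. The E2F letters lay from -135 to -128 counted from the Tap1 start, which is -98 to -91 from the Psmb9 start. They were found in 0.514% of all 32851 windows of this length. The gamma-activated site of Psmb8 lay from -97 to -89 (8.30% of all windows had one), and the response element core of B2m from -139 to -131 (8.56%). Erap1 and Psme1 also held this core, close to their starts. The Y box stood in the windows of Tap1, Psmb9, B2m and Tapbp and in 37.4% of all windows. A second E2F form (TTTCCCGC, in 1.07% of all windows) and the CRE (TGACGTCA, in 1.79%) matched none of the 8 windows. A match describes the letters and not whether a factor binds there.

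The antigen processing genes were lower in pRb-deficient than in pRb-expressing osteoblasts in 8 of 10 cases, and none was higher. The immunoproteasome subunits Psmb8 and Psmb9 had mean signals of 60.0 ± 42.2 and 35.6 ± 15.7 in pRb-deficient cultures, against 1215 ± 20.9 and 470 ± 1.79 in pRb-expressing cultures (SD, n = 3). The transporter subunits Tap1 and Tap2 were 7.23-fold and 5.15-fold lower, and Psmb10, Erap1 and Psme1 fell by factors between 2.11 and 2.37. B2m, the light chain, and Nlrc5, which activates class I genes, did not pass the test in their brightest probe sets. Over all 16308 genes tested, 23.4% were lower and 18.5% were higher by the same test, so a large share of the array moved as well. The median log2 fold change of the 10 genes was -1.22, against -0.088 over all genes tested.
Values are MAS5 signals, which the authors computed on a linear scale, with each array scaled to a trimmed mean of 500. Here signals at or below 32, near background, were set to 32, which touched between 24.4% and 26.6% of each array. Log2 signals were then fitted with limma, which borrows information on the spread from all probe sets, and Benjamini-Hochberg adjustment ran over 38427 probe sets, with 0.05 as the threshold. Log2 fold changes have pRb-deficient cultures on top, and negative ones mean a lower signal without pRb. Folds written as lower are geometric means of the pRb-expressing cultures over those of the pRb-deficient ones, and "at least" marks a gene with signals at the floor. Differences between groups were read within a probe set, and sums over marker lists weigh bright probe sets most. Where RNA of mixed cells is measured, fewer cells that express a gene and less RNA per cell cannot be told apart.
Of the 17 probe sets, 11 were lower at an adjusted p under 0.05 from limma, none was higher and 6 did not pass, while 18.8% of all probe sets tested were lower. In 14 of the 17 every pRb-deficient culture was below every pRb-expressing one, which held for 26.4% of all probe sets tested. Both values were counted on signals before the floor was applied. The dim second probe set of Psmb8 and 1 dim probe set of Tap1 are among the 14 only through pRb-expressing signals below 32, which tie at the floor.

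**Figure D1:**
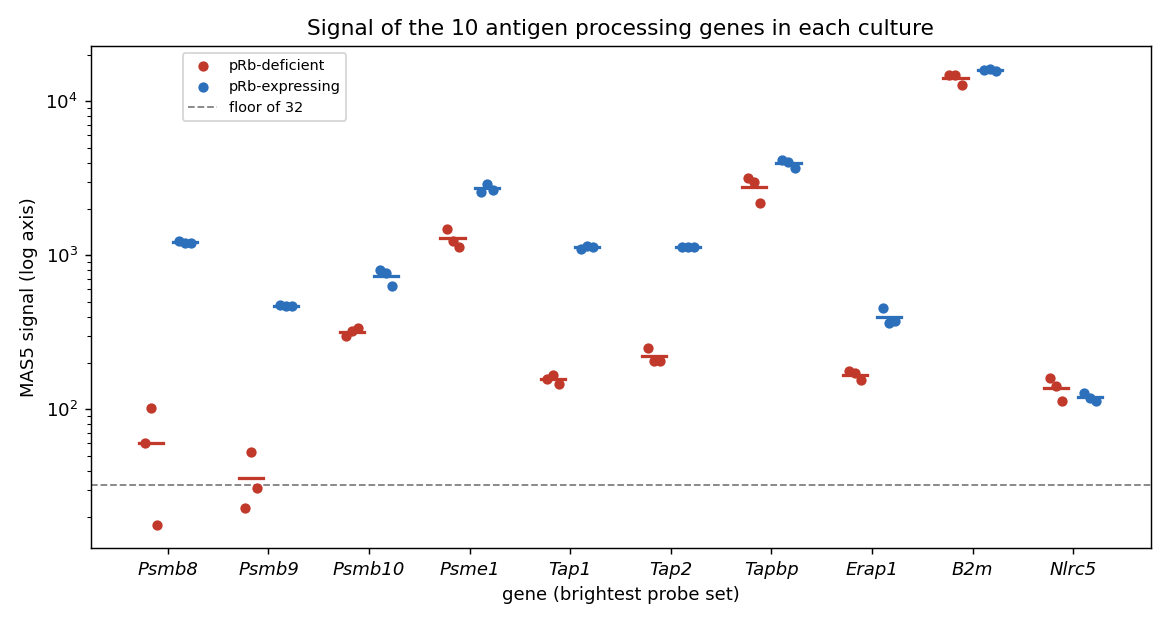
MAS5 signal (log axis) of the brightest probe set of each of the 10 genes (x axis) in each culture (points), with bars at the means of 3 cultures and the floor of 32 as a dashed line. The pRb-deficient cultures lie below the pRb-expressing ones in 9 genes, farthest in Psmb8 and Psmb9, and the groups overlap in Nlrc5.

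The immunoproteasome subunits with the largest drops were those encoded in the MHC region. Psmb8, a subunit with chymotrypsin-like activity, had signals of 60.4, 101.9 and 17.6 in pRb-deficient cultures, against 1239.3, 1204.0 and 1202.3 in pRb-expressing cultures. The groups did not overlap, and 2 of the 3 pRb-deficient cultures were above the floor. Its log2 fold change was -4.38 (standard error 0.38, adjusted p = 0.000198 from limma), with the size set in part by the floor. The spread among pRb-deficient cultures was wide (SD 42.2 around a mean of 60.0, n = 3), while that among pRb-expressing cultures was narrow (SD 20.9 around a mean of 1215, n = 3). A dim second probe set of Psmb8 gave 4.6, 0.7 and 4.6 in pRb-deficient cultures and 82.1, 27.7 and 88.6 in pRb-expressing cultures and did not pass (adjusted p = 0.101 from limma).
Psmb9, which replaces another catalytic subunit, had signals of 22.7, 53.1 and 31.0 in pRb-deficient cultures, against 471.8, 468.8 and 468.6 in pRb-expressing cultures. Only pRb-deficient replicate 2 was above the floor, and no pRb-deficient value came near those of the pRb-expressing cultures. The log2 fold change was -3.63 (standard error 0.24, adjusted p = 6.54e-05 from limma, with the size set in part by the floor). Psmb10, the third catalytic subunit of the immunoproteasome, is encoded outside the MHC on chromosome 8. Its signals were 298.4, 321.1 and 338.1 in pRb-deficient cultures, against 797.9, 771.3 and 631.2 in pRb-expressing cultures. The groups did not overlap, and Psmb10 was 2.29-fold lower (log2 fold change -1.19 with a standard error of 0.12, adjusted p = 0.000372 from limma).
The standard subunits that these replace did not move in the same way. Psmb5, the counterpart of Psmb8, was higher, with signals of 5591.3, 6150.2 and 6250.2 in pRb-deficient cultures and 3932.1, 4450.9 and 4028.0 in pRb-expressing cultures (log2 fold change 0.54, adjusted p = 0.00187 from limma). Psmb6, the counterpart of Psmb9, was lower by less than Psmb9 was (log2 fold change -0.55, adjusted p = 0.0165). For Psmb7, the counterpart of Psmb10, the log2 fold change was -0.15 and did not pass (adjusted p = 0.221, 95% interval -0.34 to 0.047). The difference within each pair was not tested. Among 11 other subunits of the proteasome core, 4 were higher (Psma6, Psma4, Psma2 and Psma3, with log2 fold changes between 0.45 and 0.67), 1 was lower (Psmb1, at -0.45) and 6 did not pass.
Psme1 encodes the alpha subunit of an activator ring that caps the proteasome and is induced by interferon gamma. Its signals were 1489.2, 1244.6 and 1138.1 in pRb-deficient cultures, against 2586.6, 2917.5 and 2640.9 in pRb-expressing cultures. The lowest pRb-expressing culture was above the highest pRb-deficient one, and Psme1 was 2.11-fold lower (log2 fold change -1.08 with a standard error of 0.11, adjusted p = 0.000395 from limma). Its partner Psme2 has a probe set annotated with more than 1 gene and was not analysed here. Psme3 and Psme4, activators outside the immunoproteasome, had log2 fold changes of -0.61 (adjusted p = 0.00610 from limma) and -0.28 (adjusted p = 0.0190) and were also lower. Both, like Psmb6, lie on chromosome 11, where the median log2 fold change was -0.39 and 43.7% of genes were lower.

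Both subunits of the peptide transporter were lower, with little spread among cultures of a group. Tap1 had signals of 157.7, 165.7 and 145.0 in pRb-deficient cultures, against 1104.0, 1149.7 and 1128.0 in pRb-expressing cultures. Tap2 had 250.2, 207.0 and 206.7 in pRb-deficient cultures, against 1135.0, 1133.5 and 1137.2 in pRb-expressing cultures. In both genes every pRb-deficient culture was far below every pRb-expressing one. The log2 fold changes were -2.85 for Tap1 (standard error 0.10, adjusted p = 5.24e-06 from limma, rank 138 from the lowest) and -2.36 for Tap2 (standard error 0.11, adjusted p = 1.40e-05, rank 229).
The other 3 probe sets of Tap1 were dim and did not pass. One gave 4.4, 3.8 and 3.4 in pRb-deficient cultures and 24.8, 97.7 and 23.2 in pRb-expressing cultures, so only pRb-expressing replicate 2 was above the floor. In the 2 others signals ran between 6.7 and 44.6 in pRb-deficient cultures and between 6.8 and 35.1 in pRb-expressing cultures, and the groups overlapped. With the mean over all its probe sets in place of the brightest, Tap1 had a log2 fold change of -0.81 and still passed.
Tapbp encodes tapasin, which bridges the transporter and the heavy chain during loading. It was lower by less than the transporter, with signals of 3184.2, 2994.0 and 2170.8 in pRb-deficient cultures, against 4146.5, 4041.6 and 3694.6 in pRb-expressing cultures. The log2 fold change was -0.53, with a standard error of 0.15 (adjusted p = 0.0291 from limma). Its second probe set had 1211.4, 1178.0 and 1063.5 in pRb-deficient cultures and 1656.2, 1567.1 and 1710.3 in pRb-expressing cultures, with a log2 fold change of -0.52 (adjusted p = 0.00214). Neither probe set overlapped between groups. The brightest probe set no longer passed without pRb-deficient replicate 2 (adjusted p = 0.0719) or without any one of the pRb-expressing replicates (0.129, 0.133 and 0.0791 without replicate 1, 2 and 3), whereas the second passed in each of these.
Erap1, the aminopeptidase that trims peptides in the endoplasmic reticulum, was lower in both of its probe sets. The brighter one had 177.6, 170.7 and 154.7 in pRb-deficient cultures, against 455.6, 365.4 and 376.7 in pRb-expressing cultures, and was 2.37-fold lower (log2 fold change -1.25 with a standard error of 0.14, adjusted p = 0.000677 from limma). The dimmer one had 34.8, 28.8 and 34.6 in pRb-deficient cultures, against 110.4, 115.6 and 117.9 in pRb-expressing cultures, at least 3.39-fold lower (adjusted p = 0.000179). Neither overlapped between groups, and the dimmer one was near the floor in all 3 pRb-deficient cultures.

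The light chain and the activator of class I genes stood apart from these. B2m had signals of 14911.0, 14787.2 and 12839.4 in pRb-deficient cultures, against 15962.4, 16255.8 and 15640.9 in pRb-expressing cultures. The values did not overlap, but the log2 fold change of -0.17 did not pass (95% interval -0.37 to 0.021, adjusted p = 0.155 from limma). Its second probe set had 12917.8, 12280.8 and 12039.8 in pRb-deficient cultures, against 15007.0, 14610.8 and 13800.4 in pRb-expressing cultures, and passed narrowly (log2 fold change -0.22, adjusted p = 0.0462). That call ended without any 1 of 5 of the 6 arrays (adjusted p from 0.0530 to 0.138), pRb-deficient replicate 1 being the exception, and with the replicate number as a block (0.0839). In all, this probe set passed in 4 of 15 alternative settings. The median over genes of chromosome 2, where B2m lies, was -0.22.
Nlrc5 encodes a regulator that enters the nucleus and activates class I genes, and it had 1 probe set. Its signals were 160.5, 141.6 and 112.9 in pRb-deficient cultures and 127.1, 117.8 and 112.8 in pRb-expressing cultures. The groups overlapped, and the log2 fold change was 0.20 (95% interval -0.27 to 0.67, adjusted p = 0.491 from limma). This interval does not exclude a moderate change in either direction. The pRb-expressing signals were so near the floor that a drop as large as that of Tap2 could not have been measured.

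**Figure D2:**
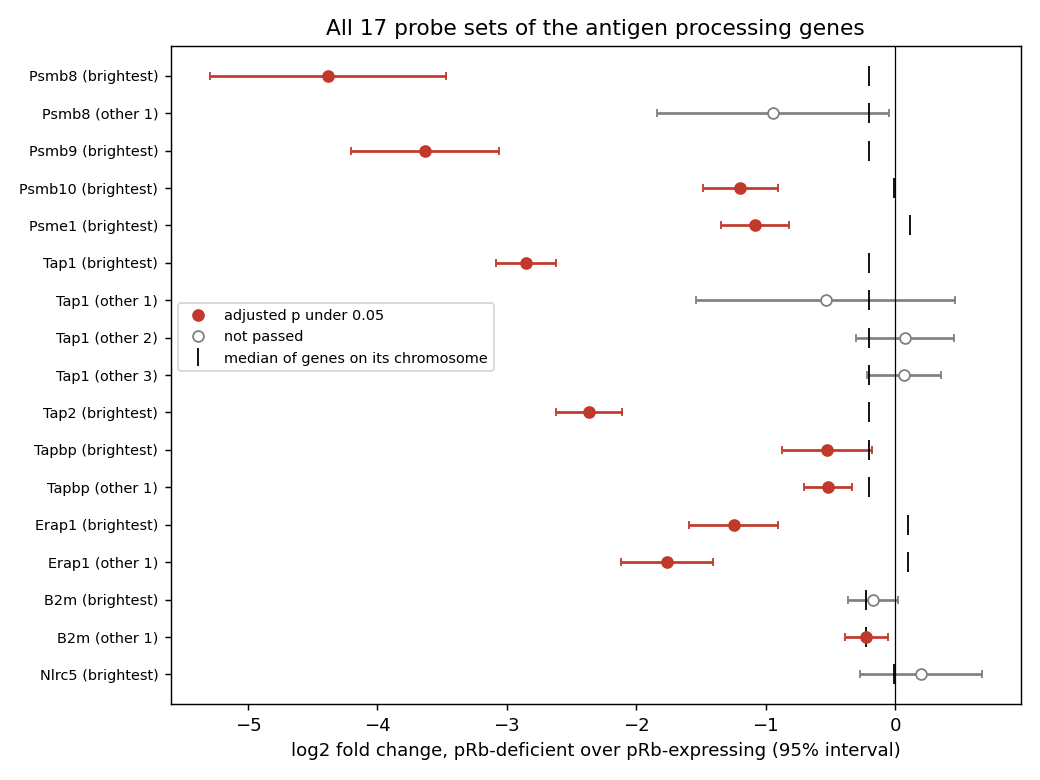
Log2 fold change of pRb-deficient over pRb-expressing cultures (x axis) for all 17 probe sets (y axis), with 95% intervals from limma. Filled points passed an adjusted p of 0.05, open points did not, and the vertical ticks give the median over genes of the same chromosome. Intervals of Psmb8, Psmb9, Tap1 and Tap2 in their brightest probe sets lie farthest from these ticks, and those of B2m and Nlrc5, the brightest probe set of Tapbp, the dim one of Psmb8 and the 3 dim ones of Tap1 include them.

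Psmb9, Tap1, Psmb8 and Tap2 are neighbours in the MHC region of chromosome 17, with Tapbp at some distance from them. Genes of this chromosome had a median log2 fold change of -0.20, and 227 of 759 (29.9%) were lower. From Tapbp to Tap2 the RefSeq annotation lists 22 protein-coding genes, of which 21 were tested. Among the 16 that are not part of the set, 9 were lower, none was higher and 7 did not pass, with a median of -0.46.
The genes next to these 4 were dim. On the Tapbp side, H2-DMb2, which helps to load class II molecules, had a log2 fold change of -0.55 and did not pass (adjusted p = 0.0895 from limma), and H2-DMb1 was not analysed here. On the other side, H2-Ob was at or below the floor on all 6 arrays, and the class II genes H2-Ab1 and H2-Aa had log2 fold changes of -0.069 and -0.040, with signals near background in both groups. In H2-DMb2, H2-Ob, H2-Ab1 and H2-Aa the pRb-expressing signals were so near the floor that a drop as large as that of Tap2 could not have been measured. Between these 4 genes and Tapbp, H2-Ke6, an enzyme of steroid and fatty acid metabolism, was lowest (-1.87, adjusted p = 0.000181). Brd2, a chromatin reader encoded between the class II genes, had a log2 fold change of -0.065 and did not pass.
Relative to the median of its own chromosome, each of Tap1, Tap2, Psmb8 and Psmb9 was lower by 2.17 or more on the log2 scale. Psmb10, Erap1 and Psme1, on chromosomes 8, 13 and 14, stood at -1.19, -1.34 and -1.20 against medians of -0.0045, 0.098 and 0.12. Tapbp stood at -0.33 and no longer passed with that median removed (adjusted p = 0.138 from limma), whereas its second probe set passed at -0.32 (adjusted p = 0.0199).

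**Figure D3:**
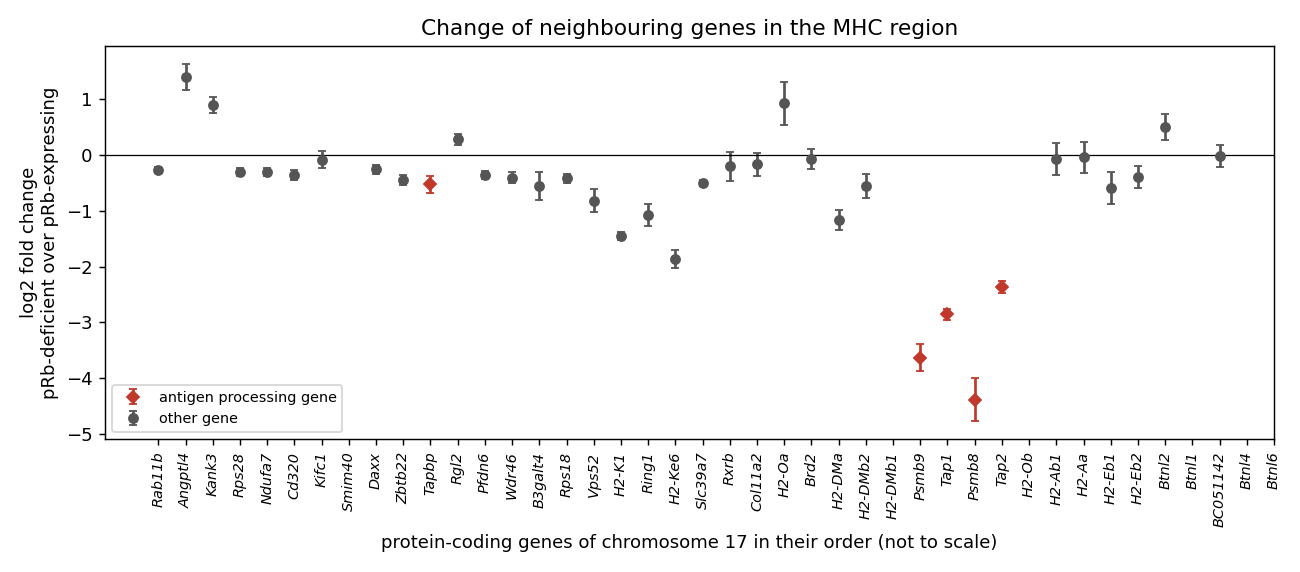
Log2 fold change of pRb-deficient over pRb-expressing cultures (y axis) for protein-coding genes of chromosome 17 in their RefSeq order (x axis, not to scale), with standard errors from limma; diamonds mark antigen processing genes, and genes without a tested probe set have no point. Psmb9, Tap1, Psmb8 and Tap2 lie between -4.38 and -2.36, below every other gene shown, though some neighbours were too dim to show such a drop.

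Some of the class I heavy chains were lower. Of 23 heavy chain and related genes listed, 12 had a probe set annotated with that gene alone. H2-Q2 was at or below the floor on all 6 arrays. Of the 11 tested, 4 were lower, none was higher and 7 did not pass, with a median log2 fold change of -0.75. Among those 7, H2-Bl and Hfe had lower signals without overlap (adjusted p = 0.0528 and 0.0533 from limma). H2-Q10 and H2-T24 were too near the floor to show a drop as large as that of H2-K1. H2-K1, a classical heavy chain, had signals of 2111.8, 2026.7 and 1838.2 in pRb-deficient cultures, against 5632.2, 5563.9 and 5143.4 in pRb-expressing cultures (log2 fold change -1.45, adjusted p = 2.59e-05 from limma). H2-D1, the other classical heavy chain measured, had a log2 fold change of -1.69 (adjusted p = 0.000212), and H2-M3, which presents formylated peptides, had -1.95 (adjusted p = 0.000119). Heavy chain genes have closely similar sequences, so their probes may hybridize with each other's RNA. Fcgrt, a related receptor that binds antibodies and pairs with B2m, was lower too (-1.27, adjusted p = 0.00247).
Helpers of loading and other peptidases moved both ways. Of 10 genes of peptide loading and quality control, 5 were lower and 2 higher, while 3 did not pass. Sec61b, a translocon subunit, had the lowest adjusted p (log2 fold change -1.21), followed by Uggt1, which checks the folding of glycoproteins (-0.69), and Ganab, a glucosidase, which was higher (0.45). Of 8 other peptidases, 4 were higher and 2 lower, while 2 did not pass. Nrd1 and Dpp8 were higher, with log2 fold changes of 1.08 and 1.03, and Blmh, a cysteine peptidase, was lower, at -1.16.
Among 11 promoter factors of class I genes, 5 were higher and 3 lower, while 3 did not pass. The NF-kB subunit Rela was higher, with signals of 4235.8, 3830.9 and 3851.1 in pRb-deficient cultures and 2311.1, 2420.9 and 2468.5 in pRb-expressing cultures (log2 fold change 0.73, adjusted p = 0.000262 from limma). Rfxap, part of the complex that binds the X box, was higher (0.80) and Nfya, part of the factor that binds the Y box, was lower (-0.96).

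**Figure D4:**
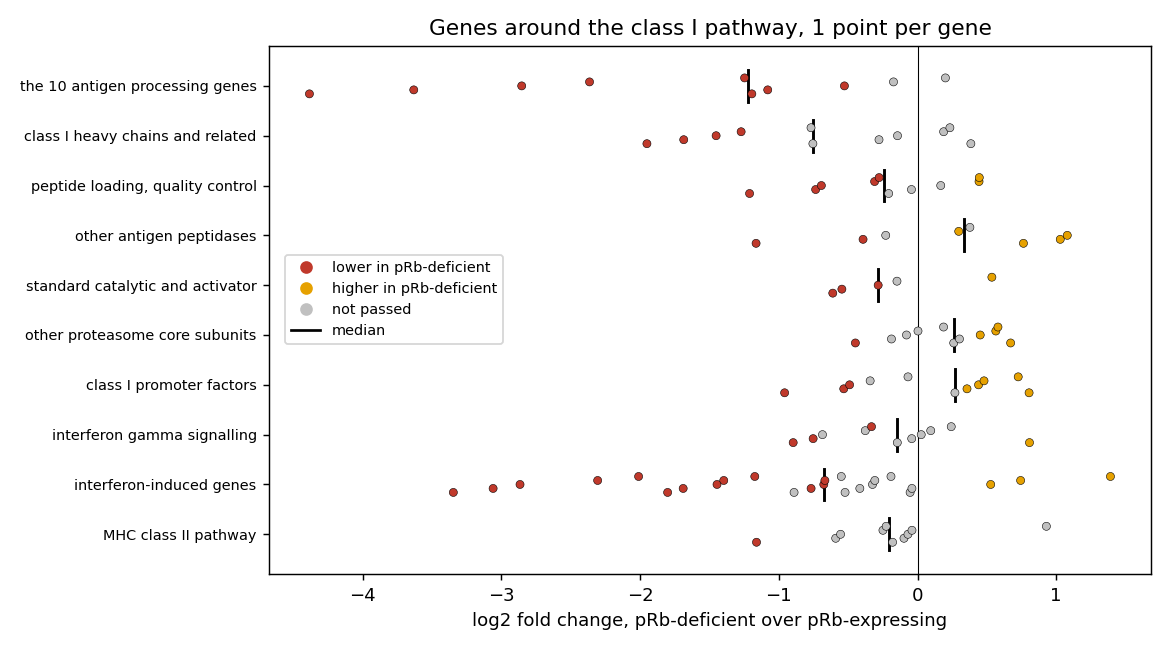
Log2 fold change of pRb-deficient over pRb-expressing cultures (x axis) for tested genes in 10 groups (y axis), 1 point per gene by its brightest probe set, with the median of each group as a black line. Of these 10 groups, which leave out the cell type markers, the antigen processing genes have the lowest median, at -1.22, and the medians of the other peptidases, the proteasome core and the promoter factors are above 0.

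Interferon gamma is the classical inducer of these genes, and its signalling genes gave mixed values. Irf1, the transcription factor that binds the response element, had signals of 898.9, 911.6 and 1090.3 in pRb-deficient cultures, against 1777.2, 1708.3 and 1898.5 in pRb-expressing cultures. It was lower without overlap (log2 fold change -0.90 with a standard error of 0.096, adjusted p = 0.000479 from limma). Irf1 lies on chromosome 11, where the median log2 fold change was -0.39. In all, 3 of 11 signalling genes were lower (Irf1, Stat2 and Jak2), 1 was higher and 7 did not pass. The higher one was Ptpn2, a phosphatase that acts on JAK and STAT proteins, with a log2 fold change of 0.81 (adjusted p = 0.00126).
Of 25 interferon-induced genes outside the class I pathway, 13 were lower and 3 higher, while 9 did not pass, with a median log2 fold change of -0.68. Ifi27l2a had signals of 11.7, 11.4 and 11.7 in pRb-deficient cultures, against 344.0, 338.2 and 296.6 in pRb-expressing cultures. The drop was at least 10.2-fold, with an adjusted p of 2.33e-05 from limma. The immunity-related GTPase Irgm1 (-1.45) and the antibody receptor Trim21 (-1.80) were lower, and the chemokine Cxcl10 (at least 2.62-fold, with 1 pRb-expressing culture below the floor), the tether protein Bst2 (log2 fold change 0.74) and Ifit2 (0.53) were higher.
Most genes of the class II pathway did not pass, and markers of blood cells gave mixed values. Of 10 class II pathway genes tested, 1 was lower (H2-DMa, log2 fold change -1.16), none was higher and 9 did not pass. Of 13 markers of hematopoietic and antigen-presenting cells tested, 3 were higher (Cd52, Cd68 and Itgax), 1 was lower (Lyz2, -3.92) and 9 did not pass. The summed signal of all 14 markers measured, with the untested Cd3e, was 1590 to 1766 in pRb-deficient cultures and 3130 to 3160 in pRb-expressing cultures. Without Lyz2 the sum of the other 13 was 1440 to 1703 in pRb-deficient cultures and 1457 to 1600 in pRb-expressing cultures. Ptprc, which defines blood cells, had signals of 53.3, 25.3 and 11.6 in pRb-deficient cultures and 41.7, 48.8 and 19.7 in pRb-expressing cultures, and Cd3e was at or below the floor on all 6 arrays. Other markers ranged from near the floor to well above it. Csf1r had 421.5, 381.4 and 478.7 in pRb-deficient cultures and 453.0, 400.8 and 462.3 in pRb-expressing cultures. Laptm5 had 205.2, 392.1 and 527.4 against 476.3, 306.5 and 416.1, and Lyz2 had 149.2, 128.1 and 62.5 against 1559.9, 1572.2 and 1703.6. Of 6 endothelial markers tested, none was lower or higher at an adjusted p under 0.05.
Osteoblast markers differed as well. Of the 12 listed, 8 had a probe set annotated with that gene alone (not Runx2, Spp1, Bglap or Bglap2). Of these 8 markers, 7 were lower and 1 was higher. Their summed signal was 18032 to 28083 in pRb-deficient cultures and 44556 to 50850 in pRb-expressing cultures. Ibsp and Dmp1, which mark mature osteoblasts, were at or below the floor in all 3 pRb-deficient cultures in their brightest probe sets. Phex, another gene of late osteoblasts, was the one that was higher, with 170.5, 122.9 and 90.8 in pRb-deficient cultures and 27.4, 37.5 and 19.1 in pRb-expressing cultures. Col1a1 and Col1a2, which were bright in both groups, made up most of the sum, and without them it was 595 to 930 in pRb-deficient cultures and 9072 to 11359 in pRb-expressing cultures. The part of these markers in the drop of the antigen processing genes was not tested.

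By the pattern over the 6 arrays, the genes outside the set most like Tap1 were Ramp1 (Pearson's r 0.9996), Hoxa10 (0.9994) and LOC664787 (0.9993), out of 10159 genes whose mean in the higher group reached 200. Since the arrays form 2 groups, such values rest on the difference between groups, and 501 of these genes exceeded 0.99.
Of the series as a whole, Rb1, which encodes pRb, had signals of 143.1, 127.1 and 123.5 in pRb-deficient cultures and 1123.7, 1118.6 and 1105.9 in pRb-expressing cultures. Its probe set may lie outside the deleted exon, since positions were not examined, so this is only a check of the RNA level. Across probe sets, which are no replicates, log2 signals of 2 arrays correlated with r from 0.979 to 0.987 within a group and from 0.928 to 0.932 between groups. The Y-linked genes Eif2s3y, Kdm5d and Uty were at or below the floor in all pRb-deficient cultures in their brightest probe sets, and Xist was higher there, so the groups also differ in sex-linked genes. The part of this difference in the results above was not tested.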

How the data were processed

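Total RNA of 6 cultures was labeled with biotin and hybridized by the authors to Affymetrix Mouse Genome arrays. The deposited intensities are MAS5 signals on a linear scale, which the authors scaled to a trimmed mean of 500 (checked here with 2% removed at each end); Affymetrix Expression Console 1.1 is named in the submitters' processing notes. Scaling to a common mean makes each value relative to its array. The table holds no detection calls, and the number of arrays limits the precision.
Of 45101 probe sets, 64 controls and 6610 at or below 32 on all arrays were left out. The remaining 38427 were raised to 32 where below it, and their log2 values entered limma 3.58.1 in R 4.3.3 (lmFit, eBayes with an intensity trend) with a term for group, which left 4 residual degrees of freedom. The methods name Wilcoxon tests with permutations and a false discovery rate. An exact rank test of a single gene cannot go below p = 0.1 (two-sided) with 3 against 3 cultures, so limma was used here. P-values are two-sided, adjusted by Benjamini and Hochberg. By the annotation, 34945 probe sets had 1 gene symbol, 932 had several and 9160 had none. A gene was represented by its probe set with the highest mean signal; RefSeq (GRCm38.p6) gave chromosomes, gene order and promoters, and the study names no build.
Arrays with the same replicate number deviated from their group means with correlations of 0.023, -0.034 and 0.057, so the numbers were not taken as pairs. The fit was tested on simulated data. Alternatives covered the floor, the filter, scaling, the choice of probe set, the replicate block and each array left out.
The genes of the set, the gene lists and the motifs were chosen with earlier results of these data known. Named are all 10 genes, Rb1, Irf1, the standard catalytic subunits, from each list up to 3 genes of lowest adjusted p, and the 3 genes most like Tap1; others were named after their values were seen.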

Additional observations from a re-analysis of the deposited data

How the results depend on the processing

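Of the 16 alternatives, 7 or 8 of the 10 genes passed in each, all of them lower, and of the 15 that keep single probe sets, 9 to 13 probe sets passed. Over the 6 fits that leave out 1 array, 7 to 8 genes and 9 to 11 probe sets passed. Tap1, Tap2, Psmb8, Psmb9, Psmb10, Erap1 and Psme1 passed in every alternative, with adjusted p of at most 0.00921. Tapbp did not pass in its brightest probe set under 7 of 16: the 4 array removals named in the report, the removal of chromosome medians (0.138), no filter on dim probe sets (0.0852) and no intensity trend (0.0565). B2m, which passed in no fit of its brightest probe set, changed sign with quantile normalization (0.011) and with chromosome medians removed (0.051).
Sizes near the floor depended on it. With a floor of 100 the log2 fold change was -2.23 for Psmb9, -3.59 for Psmb8 and -0.20 for the dimmer probe set of Erap1 (-1.18 with 32 added to each signal instead), since the signals of the pRb-deficient cultures lie below that floor, except 101.9 for Psmb8 in replicate 2. With the mean over all probe sets, which brings in dim ones, the log2 fold change was -0.81 for Tap1 and -2.66 for Psmb8.
With a replicate block in the fit there were 10 probe sets and 8 genes past the threshold, while 17.1% of all probe sets were lower. Among the 17 probe sets the block changed only the call of the second B2m probe set.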
